A study of Homo sapiens with 6 samples.

Results

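The genes described here encode the core proteins of the spliceosomal small nuclear ribonucleoproteins (snRNPs) and their close relatives. They were taken from the deposited gene tables by symbol, as every gene whose name starts with SF3A or SF3B and a digit, with SNRP, with PRPF and a digit, with LSM and a digit, or with U2AF. This gave 52 of the 27968 listed genes, of which 50 had enough reads to be tested. The pseudogene SNRPD2P2 was listed at 0 in all 6 libraries, and U2AF1L5, a gene copy nearly identical to U2AF1, held at most 0.913 CPM (counts scaled to library size by the trimmed mean of M-values, TMM).

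RNA came from T47D, an estrogen receptor-positive human breast cancer cell line, 48 hours after transfection with an siRNA against HOTAIR-N, a variant of the noncoding RNA HOTAIR, or with a control siRNA. Each group held 3 libraries, which the design text calls independent transfections of the 1 cell line, and no other treatment is given. HOTAIR stood at 5.65, 5.63 and 5.68 CPM with the HOTAIR-N siRNA, against 16.2, 16.1 and 16.6 CPM with the control siRNA. The libraries summed to between 31777001 and 36707169 expected counts, and the least abundant tested member, U2AF1L4, still held at least 112 counts in each. The luminal markers KRT8, KRT18, KRT19, GATA3, FOXA1, EPCAM, CDH1, ESR1 and PGR averaged 28.3 TPM (transcript abundance per length and library) or more in both groups. ESR1 averaged 28.3 TPM with the HOTAIR-N siRNA and 86.2 TPM with the control siRNA. In the edgeR test described below, CDH1 rose to 186% of control. ESR1 fell to 32.1%, PGR to 36.4%, KRT18 to 65.8%, EPCAM to 77%, FOXA1 to 80.4% and GATA3 to 80.6%. KRT8 and KRT19 were not called. Of 9 markers of stromal, immune and endothelial cells, COL1A2, DCN, PTPRC, CD3E, PECAM1, VWF and CDH5 were too low to be tested, COL1A1 ranged over 23.1 to 27 CPM with the HOTAIR-N siRNA and 26.9 to 31.1 CPM with the control siRNA, and CD68 over 3.1 to 3.86 CPM with the HOTAIR-N siRNA and 2.26 to 2.46 CPM with the control siRNA. By the edgeR test below, COL1A1 was lower with the HOTAIR-N siRNA (log2 fold change -0.26, edgeR adjusted p = 0.0092). CD68 was higher (log2 fold change 0.55, edgeR adjusted p = 0.0022). The part of these markers in the results was not tested. The third HOTAIR-N siRNA library and the second control siRNA library stood farther from their groups than the other libraries, and without both 42 members changed by the test below, 40 of them shared with the full set. In bulk RNA, fewer cells expressing a gene and less RNA per cell cannot be told apart.

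Spliceosomes remove introns from pre-mRNA and are built from U1, U2, U4, U5 and U6 snRNPs, each a small RNA with its proteins. Sm proteins form a ring on the U1, U2, U4 and U5 RNAs, and LSM proteins a related ring on U6 RNA. U1 recognizes the start of an intron, U2 its branch point with the help of U2AF, and the U4/U6.U5 tri-snRNP then joins to form the catalytic center. Most of these proteins are essential in every cell type, and SF3B1 and U2AF1 are known for recurrent mutations in cancer.

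Most of these genes were lower after the HOTAIR-N siRNA, by small amounts. Of the 50 tested, 35 (70%) fell, 7 (14%) rose and 8 were not called. A call means a Benjamini-Hochberg adjusted p below 0.05, over all 14919 tested genes, by the quasi-likelihood test of edgeR. Over all tested genes 34.8% fell and 36.2% rose, 71.1% in either direction, against 84% of the members. The median log2 fold change, HOTAIR-N siRNA over control siRNA, was -0.25 over the members and 0.02 over all tested genes. Changes of at least 1.5-fold were found in 4 members (8%), against 32.7% of all tested genes. When tested against a change of 1.2-fold instead of no change, 15 members (30%) were lower and 3 (6%) higher, against 22.2% and 23.9% of all tested genes. Values of the 2 groups did not overlap at all for 42 members (84%), against 73.4% of all tested genes. Both without overlap and lower with the HOTAIR-N siRNA were 35 of the 50 tested members (70%), against 35.9% of all tested genes. The members that rose were PRPF40B, LSM11, LSM6, LSM14A, PRPF38A, SNRPN and SF3B1. Together the members took 0.575% to 0.577% of all counts with the HOTAIR-N siRNA and 0.645% to 0.655% with the control siRNA. Their TPM values summed to 5988, 6017 and 6043 with the HOTAIR-N siRNA, against 7036, 7054 and 7070 with the control siRNA. The calls rest on scaling to some degree: by library totals alone 33 members changed, 25 lower and 8 higher.

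**Figure D1:**
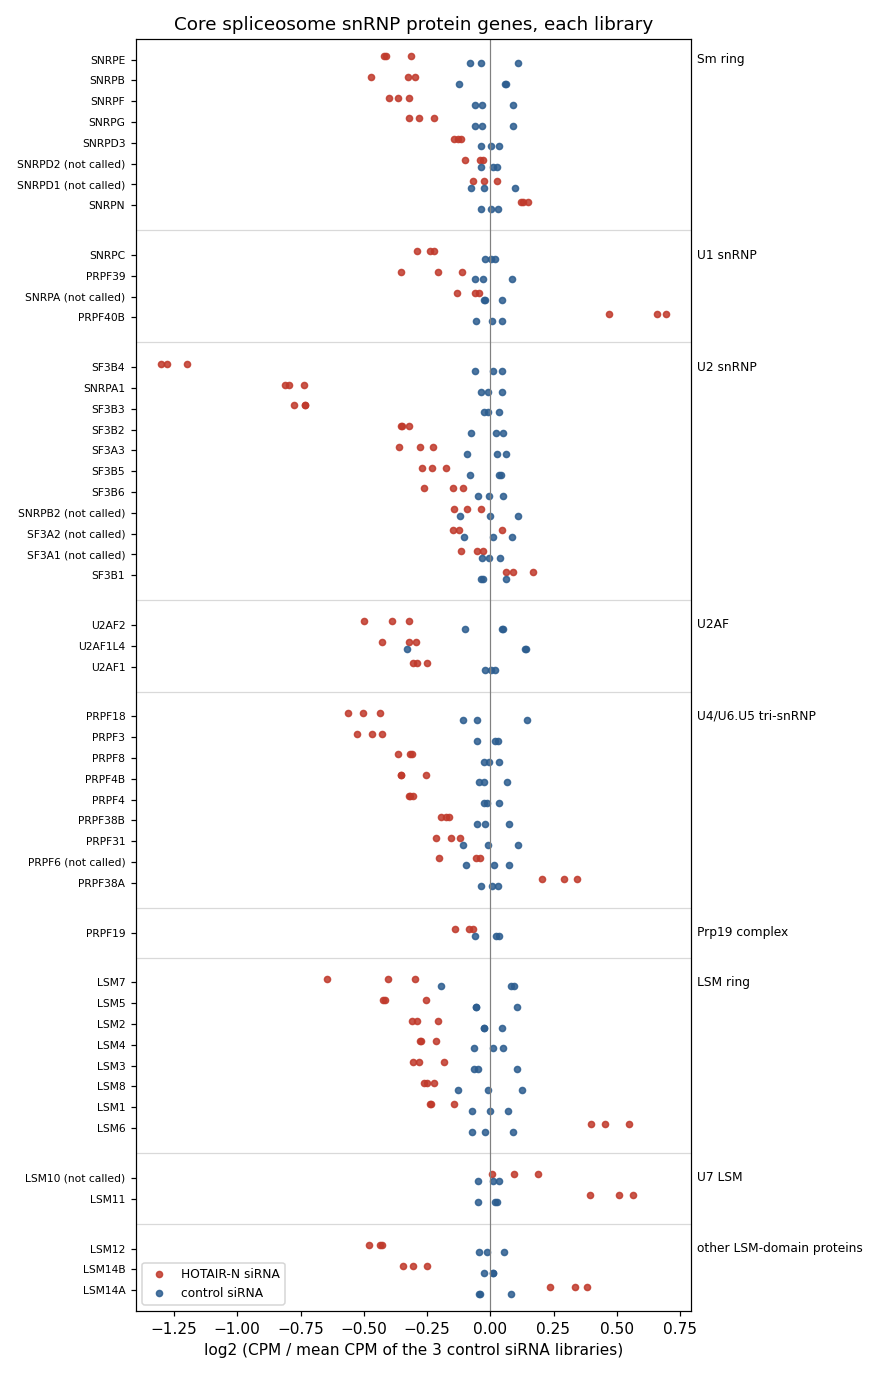
Each row is a tested member, with 1 not shown, and each point a library, as the log2 ratio of its CPM to the mean of the 3 control siRNA libraries, with HOTAIR-N siRNA above control siRNA within a row and genes grouped by class. SF3B4, SNRPA1 and SF3B3 lie farthest to the left, and PRPF40B farthest to the right.

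Among the 8 genes of the Sm ring, 5 fell, 1 rose and 2 were not called. For this class and those below, the shares over all tested genes are 34.8% lower and 36.2% higher. SNRPB, which encodes the SmB and SmB' proteins, had 240, 245 and 217 CPM with the HOTAIR-N siRNA, against 312, 275 and 314 CPM with the control siRNA. The groups did not overlap, and the log2 fold change was -0.36 (SE 0.06, edgeR adjusted p = 0.00016). Measured per length, SNRPB averaged 457 ± 27 TPM with the HOTAIR-N siRNA and 578 ± 44.6 TPM with the control siRNA (SD, n = 3 each), the highest mean of all members in the control libraries. SNRPE, which encodes the SmE protein, had 115, 116 and 124 CPM with the HOTAIR-N siRNA, against 146, 167 and 150 CPM with the control siRNA, again without overlap (log2 fold change -0.38, SE 0.06, edgeR adjusted p = 6.2e-05). SNRPF and SNRPG, the partners of SmE in the ring, fell to 77.9% and 82.7% of control, and SNRPD3 fell to 91.4%. SNRPD1 and SNRPD2, whose products form a pair during ring assembly, had log2 fold changes of -0.02 and -0.06 and were not called (edgeR adjusted p = 0.74 and 0.26). Both overlapped between the groups, at 88.8, 86.4 and 92.1 CPM with the HOTAIR-N siRNA against 85.7, 96.8 and 88.8 CPM with the control siRNA for SNRPD1. SNRPD2 averaged 508 ± 8.7 TPM with the HOTAIR-N siRNA and 519 ± 14.7 TPM with the control siRNA (SD, n = 3 each), so that it held the highest TPM of all members in the HOTAIR-N siRNA libraries.

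SNRPN, an imprinted gene best known from the brain whose SmN product can take the place of SmB, went against the rest of the ring. It had 25.3, 24.9 and 24.8 CPM with the HOTAIR-N siRNA, against 23.3, 22.2 and 22.9 CPM with the control siRNA. The groups did not overlap, but the change was small (log2 fold change 0.13, SE 0.06, edgeR adjusted p = 0.048) and its call was lost under 11 of 15 alternatives. SNRPN shares exons with SNURF and SNHG14 on its own strand, and reads could be split among them. SNURF had a log2 fold change of 0.01 (edgeR adjusted p = 0.9) and SNHG14 one of 0.17 (edgeR adjusted p = 0.033). The ratio of SNRPN to SNRPB CPM, a pair chosen after the values were seen and a value that, like the other ratios of 2 members, does not depend on scaling, was 0.105, 0.102 and 0.114 with the HOTAIR-N siRNA, against 0.0746, 0.0808 and 0.0729 with the control siRNA.

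**Figure D2:**
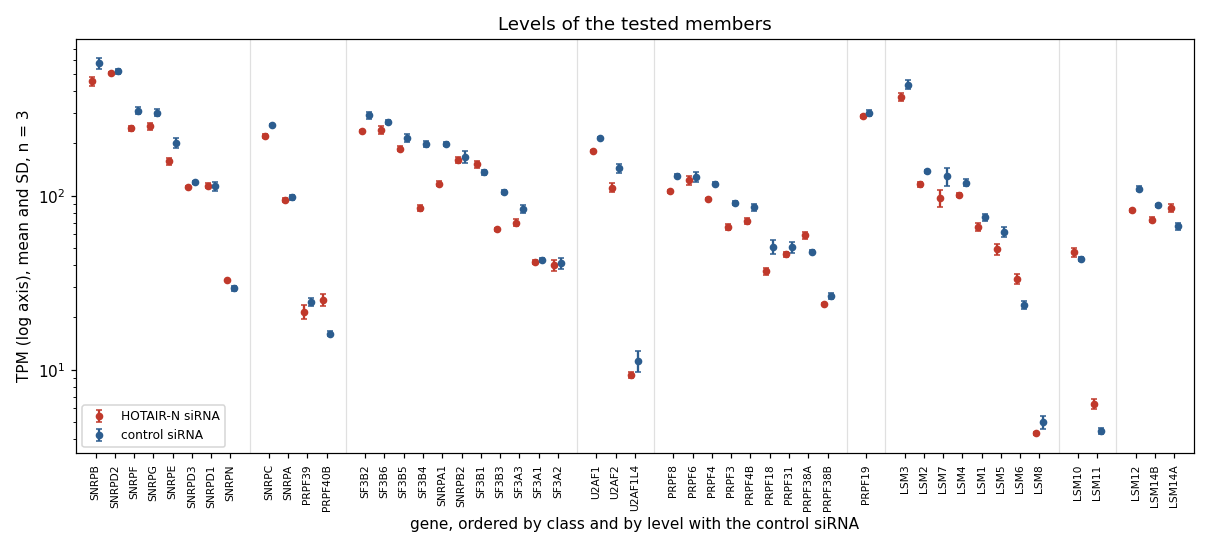
Mean TPM on a log axis with the SD of 3 libraries for each tested member, with 1 not shown, HOTAIR-N siRNA left of control siRNA, grouped by class in the order Sm ring, U1, U2, U2AF, tri-snRNP, Prp19, LSM ring, U7 and other LSM-domain proteins. Means run from 4.31 TPM (LSM8) to 508 TPM (SNRPD2) with the HOTAIR-N siRNA and from 4.45 TPM (LSM11) to 578 TPM (SNRPB) with the control siRNA.

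Of the 5 members of or near U1, 3 fell, 1 rose and 1 was not called. SNRPC, the C protein of U1 that contacts the 5′ splice site duplex, had 124, 119 and 125 CPM with the HOTAIR-N siRNA, against 144, 148 and 146 CPM with the control siRNA (log2 fold change -0.25, SE 0.04, edgeR adjusted p = 0.0002). It was also the most abundant of these genes per length, at 220 ± 6.13 TPM with the HOTAIR-N siRNA and 257 ± 2.39 TPM with the control siRNA (SD, n = 3 each). SNRPA, the A protein of U1 that binds a loop of U1 RNA, had a log2 fold change of -0.08 and was not called (edgeR adjusted p = 0.17). PRPF39, the relative of a yeast U1 protein, fell to 85.9% of control.

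PRPF40B, related to a yeast U1 protein that bridges intron ends, went against the majority of its class. It had 45.5, 44.4 and 38.9 CPM with the HOTAIR-N siRNA, against 28.3, 27 and 29 CPM with the control siRNA. This was the largest rise of any member, at 1.53-fold (log2 fold change 0.61, SE 0.07, edgeR adjusted p = 5.4e-06). The groups did not overlap. PRPF40B is among 15 of the 52 members whose exons overlap another gene on the opposite strand. The sources used here do not give the strand setting of the counting. The same limit holds for members that fell, among them LSM1, LSM3, LSM7, PRPF4, PRPF31, PRPF39, SNRPD3, SNRPF and U2AF1L4. It also holds for SF3A1, SF3A2, SNRPA and SNRPD2, which were not called. SNRPD3 also overlaps a gene on its own strand.

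U2 snRNP held the largest falls. Of its 11 members, 7 fell, 1 rose and 3 were not called. SF3B4, a subunit of the SF3B complex that binds pre-mRNA near the branch point, had 81.6, 86.1 and 80.2 CPM with the HOTAIR-N siRNA, against 199, 189 and 204 CPM with the control siRNA. Every HOTAIR-N siRNA library was thus far below every control library, and the gene fell to 41.8% of control (log2 fold change -1.26, SE 0.05, edgeR adjusted p = 5.2e-10). SNRPA1, the A' protein of U2, had 56.5, 55.8 and 58.9 CPM with the HOTAIR-N siRNA, against 95.4, 101 and 97.5 CPM with the control siRNA, again with no overlap (log2 fold change -0.78, SE 0.05, edgeR adjusted p = 3e-08). SNRPB2, the B'' protein that binds U2 RNA together with it, was not called (log2 fold change -0.09, edgeR adjusted p = 0.19).

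SF3B3 and SF3B1, the large scaffold subunits of SF3B, moved in opposite directions. SF3B3 had 330, 320 and 330 CPM with the HOTAIR-N siRNA, against 546, 562 and 539 CPM with the control siRNA, and fell to 59.6% of control (log2 fold change -0.75, SE 0.04, edgeR adjusted p = 3.7e-09). It was singled out after its values were seen. SF3B1, the subunit that clamps the branch point, had 324, 319 and 342 CPM with the HOTAIR-N siRNA, against 297, 318 and 299 CPM with the control siRNA. This was a rise of 1.08-fold (log2 fold change 0.11, SE 0.04, edgeR adjusted p = 0.043), with the highest control library just below the lowest HOTAIR-N siRNA library, and its call was lost under 8 of 15 alternatives. SF3B2, the most abundant of the U2 genes per length by its mean over all libraries, had 340, 347 and 339 CPM with the HOTAIR-N siRNA, against 439, 411 and 449 CPM with the control siRNA (log2 fold change -0.34, SE 0.04, edgeR adjusted p = 1.2e-05). SF3B5 and SF3B6, the small subunits, fell to 85.6% and 88.8% of control. In the SF3A complex SF3A3 fell to 82% of control, and SF3A1 and SF3A2 had a log2 fold change of -0.07 each and were not called (edgeR adjusted p = 0.21 and 0.36).

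The promoters of SF3B4, SNRPA1 and PRPF40B are shown as those of the largest falls and the largest rise for which RefSeq's table for GRCh38.p14 gave one. Each runs from 250 bases before to 50 bases after the annotated start, 5′ to 3′ on the gene's strand: chr1:149927754-149928053 on the minus strand for SF3B4, chr15:101295199-101295498 on the minus strand for SNRPA1 and chr12:49623311-49623610 on the plus strand for PRPF40B. Capitals mark matches on either strand to any of 7 motifs searched, namely ETS (CCGGAAG), NRF1, NF-Y (CCAAT), SP (GGGCGG), YY1 (AAGATGGC), CRE (TGACGTCA) and E2F (TTCCCGCC), of which the SP and E2F letters can share bases.
SF3B4: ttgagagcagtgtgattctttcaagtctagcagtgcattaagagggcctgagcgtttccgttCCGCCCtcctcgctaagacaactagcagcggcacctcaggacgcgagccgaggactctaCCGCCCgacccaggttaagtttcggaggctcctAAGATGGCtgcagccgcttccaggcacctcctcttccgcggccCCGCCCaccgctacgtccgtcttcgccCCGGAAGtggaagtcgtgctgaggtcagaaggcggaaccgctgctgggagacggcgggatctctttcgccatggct
SNRPA1: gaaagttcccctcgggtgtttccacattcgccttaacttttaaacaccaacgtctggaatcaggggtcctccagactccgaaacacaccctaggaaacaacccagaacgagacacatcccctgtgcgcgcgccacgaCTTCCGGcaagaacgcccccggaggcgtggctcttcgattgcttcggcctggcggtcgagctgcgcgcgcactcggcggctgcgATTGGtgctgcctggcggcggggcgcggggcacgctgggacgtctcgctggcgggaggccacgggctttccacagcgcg
PRPF40B: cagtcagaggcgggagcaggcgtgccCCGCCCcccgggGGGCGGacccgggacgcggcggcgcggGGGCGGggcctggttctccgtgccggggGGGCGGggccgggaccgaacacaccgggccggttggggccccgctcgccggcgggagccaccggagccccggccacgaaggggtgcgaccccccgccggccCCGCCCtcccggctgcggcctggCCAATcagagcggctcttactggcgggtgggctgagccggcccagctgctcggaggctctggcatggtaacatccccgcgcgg
SF3B4 had 1 match to ETS, 3 to SP and 1 to YY1, SNRPA1 had 1 to ETS and 1 to NF-Y, and PRPF40B had 1 to NF-Y and 5 to SP. In all, 41 members had 52 promoter windows in the table. Windows of the same gene can overlap and hold the same match, so the shares below are of windows and not of genes. By gene, ETS letters were found in 18 of the 41 members, NRF1 in 9, YY1 in 6, SP in 26, NF-Y in 17 and E2F in 5. ETS letters were found in 40.4% of these windows, against 16.1% of the windows of tested genes and 10.3% of all windows. NRF1 letters were in 23.1% of member windows, against 9.38% for tested genes and 5.78% for all, and YY1 letters in 11.5%, against 4.54% and 2.89%. SP letters were in 50% of member windows, against 64.7% for tested genes and 45% for all. NF-Y letters were in 32.7%, against 34.8% and 34.6%, and E2F letters in 9.62%, against 4.6% and 3.16%. CRE letters were in 0 of the 52, against 2.64% and 1.85%. These shares describe letters in a window and say nothing of binding.

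SF3B4 was also the 1 member, of 48 tested ones with an annotated 3′ UTR, to hold the 7-mer GACCAAT there. That 7-mer was picked earlier from these same fold changes. Because of that choice its presence in a gene that fell supports nothing. Among all tested genes with such a UTR 6.25% held it. The site lies at chr1:149923470-149923498 on the minus strand (GRCh38, GENCODE v29 transcripts), 55 bases into a UTR of 225 bases, with the 7-mer in capitals.
SF3B4 site: tctattccttgGACCAATcagagatgctg
SNRPA1 and SF3B3, the next largest falls, do not hold it in their matched 3′ UTRs.

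U2AF recognizes the end of the intron, and all 3 of its tested genes fell. U2AF2, the large subunit that binds the polypyrimidine tract, had 177, 185 and 164 CPM with the HOTAIR-N siRNA, against 239, 216 and 240 CPM with the control siRNA (log2 fold change -0.40, SE 0.06, edgeR adjusted p = 4e-05). U2AF1, the small subunit that reads the terminal AG and the most abundant of the group per length, had 77.3, 74.2 and 75 CPM with the HOTAIR-N siRNA, against 90.3, 91.9 and 93.1 CPM with the control siRNA (log2 fold change -0.28, SE 0.05, edgeR adjusted p = 0.00013). Reads of U2AF1 could be split with its copy U2AF1L5, and the sum of both was 75.8 ± 1.25 CPM with the HOTAIR-N siRNA and 92.1 ± 1.5 CPM with the control siRNA (SD, n = 3 each). U2AF1L4, a shorter relative of U2AF1, had 3.49, 3.56 and 3.24 CPM with the HOTAIR-N siRNA, against 3.47, 4.79 and 4.81 CPM with the control siRNA. These groups overlapped, through the first control library, and the fall (log2 fold change -0.34, SE 0.14, edgeR adjusted p = 0.04) lost its call under 10 of 15 alternatives.

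Of the 9 genes of the U4/U6.U5 tri-snRNP and its associates, 7 fell, 1 rose and 1 was not called. PRPF18, which acts in the second step of splicing, had 30.1, 28.8 and 31.5 CPM with the HOTAIR-N siRNA, against 41.1, 47.1 and 39.6 CPM with the control siRNA (log2 fold change -0.50, SE 0.07, edgeR adjusted p = 4.9e-05). PRPF3, a U4/U6 protein, had 82.6, 79.3 and 84.8 CPM with the HOTAIR-N siRNA, against 110, 117 and 116 CPM with the control siRNA (log2 fold change -0.47, SE 0.05, edgeR adjusted p = 2.4e-06). Both were lower in every HOTAIR-N siRNA library. PRPF4, the binding partner of PRPF3, fell to 80.4% of control, and the kinase gene PRPF4B to 80.2%. By the deposited shares, the coding transcript of PRPF4B averaged 20% with the HOTAIR-N siRNA and 22.3% with the control siRNA. Transcripts annotated as noncoding held the rest, so the value of the gene is mostly theirs. PRPF31, which also binds U4 snRNP, fell to 89.3%, a call that was lost under 8 of 15 alternatives. PRPF8, the U5 protein at the catalytic center, fell to 79.5% of control, at 404 ± 8.59 CPM with the HOTAIR-N siRNA and 508 ± 10.7 CPM with the control siRNA (SD, n = 3 each). PRPF6, which bridges U5 and U4/U6, had 197, 200 and 178 CPM with the HOTAIR-N siRNA, against 208, 192 and 216 CPM with the control siRNA. The groups overlapped and it was not called (log2 fold change -0.10, SE 0.06, edgeR adjusted p = 0.14), and its mean over all libraries was the highest of this class per length, at 123 ± 7.01 TPM with the HOTAIR-N siRNA and 129 ± 7.69 TPM with the control siRNA (SD, n = 3 each).

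PRPF38A and PRPF38B, paralogs of a protein that joins the spliceosome before its activation, moved in opposite directions. PRPF38A had 82.8, 77.9 and 85.8 CPM with the HOTAIR-N siRNA, against 65.8, 69.1 and 67.9 CPM with the control siRNA, a rise of 1.22-fold (log2 fold change 0.28, SE 0.05, edgeR adjusted p = 0.00036). PRPF38B fell to 88.4% of control (log2 fold change -0.18, SE 0.05, edgeR adjusted p = 0.0076). Their CPM ratio, PRPF38A over PRPF38B, was 1.4, 1.3 and 1.42 with the HOTAIR-N siRNA, against 1.01, 0.971 and 1.02 with the control siRNA. PRPF19, the ubiquitin ligase that gives its name to the Prp19 complex, had 334, 338 and 321 CPM with the HOTAIR-N siRNA, against 363, 340 and 359 CPM with the control siRNA. It passed the test narrowly (log2 fold change -0.10, SE 0.04, edgeR adjusted p = 0.04996), and its call was lost under 9 of 15 alternatives, with a log2 fold change of 0.001 by library totals alone.

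**Figure D3:**
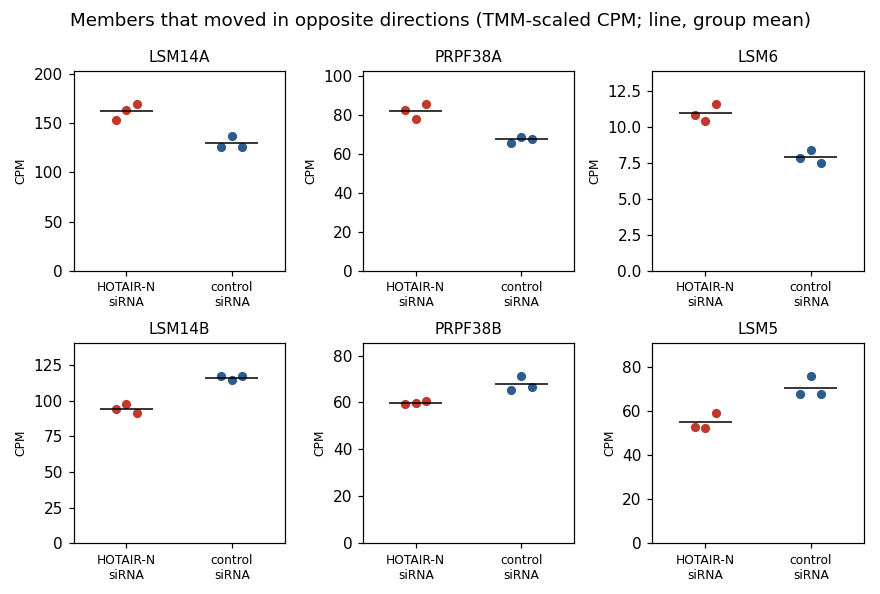
CPM in each library (points) with the group mean (line), HOTAIR-N siRNA left of control siRNA, for 3 pairs of members chosen after their values were seen. In the upper row LSM14A, PRPF38A and LSM6 are higher with the HOTAIR-N siRNA, and in the lower row LSM14B, PRPF38B and LSM5 are lower.

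LSM2 to LSM8 form the ring on the 3′ end of U6 RNA, and LSM1 replaces LSM8 in a cytoplasmic ring that promotes mRNA decapping. All 8 genes changed, 7 lower and 1 higher, where 71.1% of all tested genes changed. LSM7 had 18.5, 19.9 and 15.6 CPM with the HOTAIR-N siRNA, against 25.9, 21.4 and 26.1 CPM with the control siRNA (log2 fold change -0.44, SE 0.10, edgeR adjusted p = 0.0014). LSM3 was the most abundant of the ring per length, at 371 ± 20.5 TPM with the HOTAIR-N siRNA and 435 ± 26 TPM with the control siRNA (SD, n = 3 each). It had 102, 100 and 109 CPM with the HOTAIR-N siRNA, against 118, 133 and 120 CPM with the control siRNA (log2 fold change -0.26, SE 0.06, edgeR adjusted p = 0.0015). LSM5 fell to 77.8% of control, LSM2 to 83.1%, LSM3 and LSM4 both to 83.7%, LSM8 to 84.4% and LSM1 to 86.8%. LSM8 had the lowest TPM of the ring, with an annotated transcript of 12520 bases that lowers its value per length.

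LSM6 was the exception in the ring. It had 10.8, 10.4 and 11.6 CPM with the HOTAIR-N siRNA, against 7.79, 8.4 and 7.5 CPM with the control siRNA, so that the groups did not overlap (log2 fold change 0.47, SE 0.08, edgeR adjusted p = 0.0002). Behind these stood 394, 342 and 399 counts with the HOTAIR-N siRNA and 278, 282 and 262 counts with the control siRNA. The ratio of LSM6 to LSM5 CPM was 0.204, 0.198 and 0.195 with the HOTAIR-N siRNA, against 0.115, 0.111 and 0.111 with the control siRNA.

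LSM10 and LSM11 replace SmD1 and SmD2 in the ring of U7 snRNP, which processes the 3′ ends of replication-dependent histone mRNAs and not introns. LSM11 had 20.5, 22.1 and 23 CPM with the HOTAIR-N siRNA, against 15.9, 15.8 and 15.1 CPM with the control siRNA, and rose 1.4-fold (log2 fold change 0.49, SE 0.07, edgeR adjusted p = 3e-05). LSM10 had 19, 20.4 and 17.9 CPM with the HOTAIR-N siRNA, against 18, 18.3 and 17.2 CPM with the control siRNA, with overlap, and was not called (log2 fold change 0.10, SE 0.07, edgeR adjusted p = 0.21). Of 7 partners of U7 in histone mRNA processing, 3 (42.9%) fell and 1 (14.3%) rose, against 34.8% and 36.2% of all tested genes. SLBP, which binds the histone stem-loop, fell to 40.9% of control and CASP8AP2 to 61.5%.

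The 3 remaining members carry an LSM domain but belong to no snRNP ring. LSM12 had 99.7, 103 and 103 CPM with the HOTAIR-N siRNA, against 138, 144 and 135 CPM with the control siRNA (log2 fold change -0.45, SE 0.04, edgeR adjusted p = 2.3e-06). LSM14A and LSM14B, paralogs of cytoplasmic mRNP granules, went opposite ways. LSM14A had 153, 164 and 169 CPM with the HOTAIR-N siRNA, against 126, 138 and 126 CPM with the control siRNA (log2 fold change 0.32, SE 0.05, edgeR adjusted p = 0.00017), and LSM14B fell to 81.2% of control (log2 fold change -0.30, SE 0.04, edgeR adjusted p = 7.2e-05). The CPM ratio of LSM14A to LSM14B was 1.62, 1.68 and 1.85 with the HOTAIR-N siRNA, against 1.08, 1.2 and 1.07 with the control siRNA.

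Transcript usage was tested in 25 members that had at least 2 different RefSeq transcripts with enough reads. LSM2 also entered the test, but its 6 entries are copies of 1 transcript with identical counts, so that it could show no change. With diffSpliceDGE of edgeR, summarized per gene by Simes' method, 0 of the 25 changed and 1 had an unadjusted p under 0.05, where 6.42% of all 7465 genes tested this way changed (6.5% without 106 genes that, like LSM2, held copies only). When log2 transcript shares were tested with limma, 2 of the 25 changed, among them SNRPA1 (limma adjusted p = 0.017), and 5 had an unadjusted p under 0.05, against 13.9% of all genes changed (14% without those 106). By diffSpliceDGE SNRPA1 had an unadjusted p of 0.31. For SNRPA1 the deposited share of the noncoding transcript NR_135508 was 2.7%, 3.26% and 2.09% with the HOTAIR-N siRNA, against 0.98%, 0.95% and 0.86% with the control siRNA, so that its coding transcript NM_003090 held most of the gene in both groups. The shares of NR_135508 rest on few counts, 51, 54.7 and 39 with the HOTAIR-N siRNA and 30.6, 29.5 and 26.8 with the control siRNA.

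Other proteins of these particles, and proteins that work with them, changed in both directions. Outside the rule 90 further genes were listed, all tested. Besides spliceosome proteins they take in 16 genes of snRNP assembly and import, 8 decapping partners and 7 partners of U7 in histone mRNA processing. Of the 90, 35 (38.9%) fell and 20 (22.2%) rose, against 34.8% and 36.2% of all tested genes, with a median log2 fold change of -0.04. In either direction 61.1% changed, against 71.1% of all tested genes. Over the 90 together, which mix spliceosome genes with the others, the share that fell was near the background. By list it ran from 18.75% (3 of 16) for snRNP assembly and import to 63.6% (7 of 11) for other U2 and branch point genes. The lists are small, and differences between them were not tested. By library totals alone 33 of the 90 rose. Among 17 other U1, U5 and tri-snRNP genes 9 (52.9%) fell and 3 (17.6%) rose. PPIH, a tri-snRNP isomerase, was at 59.1% of control and LUC7L2, a relative of a yeast U1 protein, at 68.5%. Of 11 other U2 and branch point genes 7 (63.6%) fell and 1 (9.09%) rose, with SMNDC1 at 63.9% of control and the helicase gene DDX46 at 76%. The 8 genes of the U11/U12 particles of the minor spliceosome were split, with 2 lower, 2 higher and 4 not called. SNRNP48 and SNRNP25 fell to 59.5% and 59.6% of control, and ZRSR2, which acts at minor 3′ splice sites, and RNPC3 rose 1.42-fold and 1.27-fold. Of 23 genes of the Prp19 complex and the catalytic steps 9 fell and 4 rose, among them CRNKL1 at 1.7-fold and ISY1 at 74% of control.

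Of 16 genes that assemble and import snRNPs, 6 (37.5%) rose, 3 fell and 7 were not called, with a median log2 fold change of 0.05, and the share that rose was about the 36.2% of all tested genes. TGS1, which hypermethylates the cap of snRNAs, rose 1.33-fold and STRAP, a component of the SMN complex, 1.31-fold. SMN1 and SMN2 are nearly identical, and their separate values are uncertain. Of 8 decapping partners of the cytoplasmic LSM1 ring, 3 (37.5%) rose and 2 (25%) fell, against 36.2% and 34.8% of all tested genes. The decapping enzyme gene DCP2 rose 2.3-fold, at 167 ± 14 CPM with the HOTAIR-N siRNA and 72.5 ± 4.92 CPM with the control siRNA (SD, n = 3 each), and DCP1A fell to 47.7% of control.

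**Figure D4:**
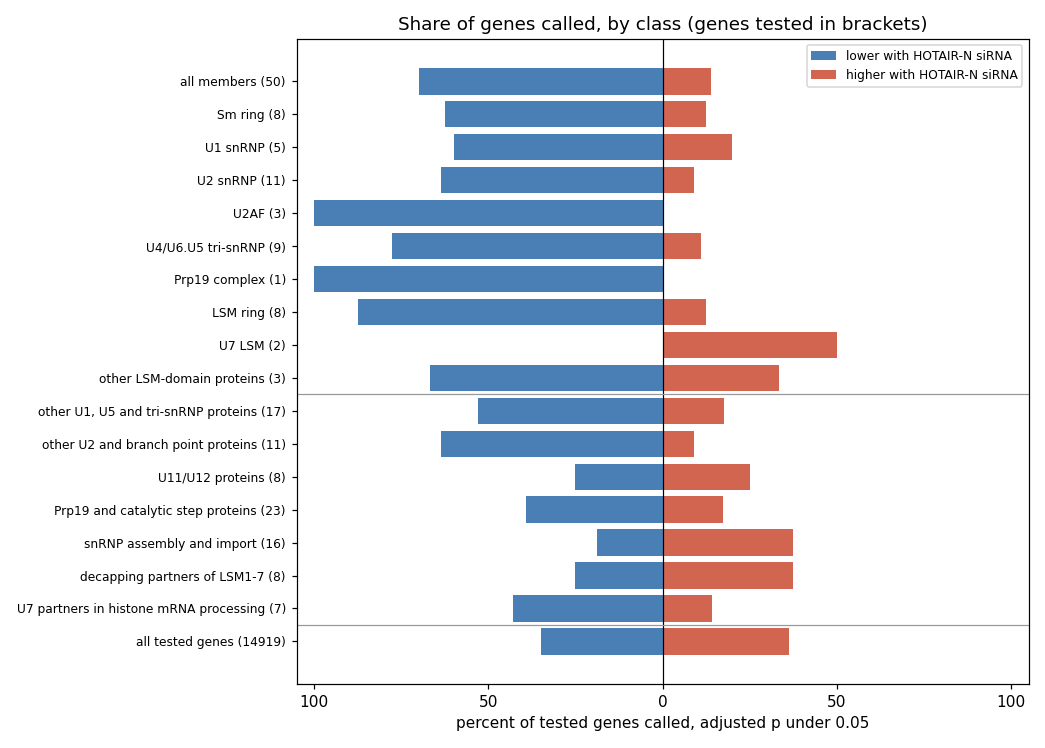
Bars give the percent of tested genes called at an adjusted p under 0.05, lower with the HOTAIR-N siRNA to the left and higher to the right. They are given for the members and their classes, for 7 lists of other spliceosome, snRNP assembly, decapping and histone mRNA processing genes, and for all tested genes. For all members 70% are lower and 14% higher, against 34.8% and 36.2% of all tested genes.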

How the data were processed

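Total RNA libraries were stranded and depleted of ribosomal RNA, per the labels' protocols, with STAR 2.6.0c, RSEM 1.3.0 and hg19 named in the submitters' processing notes without settings. Per the file headers, the deposited tables give expected counts and TPM per gene and per transcript, and each transcript's share of its gene as a percent. Expected counts were rounded, filtered with filterByExpr (minimum count 10, minimum total 15), scaled by TMM and tested with edgeR 4.0.16 in R 4.3.3 over all genes, without covariates. CPM are TMM-scaled. Usage was tested with diffSpliceDGE and, as an alternative, limma 3.58.1, with 0.1 CPM added before shares were logged. Each library was counted separately, as the design text calls them independent transfections. Between replicates the counts differed by more than counting error (chi-square over its degrees of freedom was at least 2.16 and at most 8.56). Pairs with the third HOTAIR-N siRNA or the second control siRNA library had at least 6.64, the others 2.3 and 2.16. This excess cannot tell separate transfections from repeated preparations of the same RNA. Alternatives were other scalings, DESeq2 1.42.0, limma-voom, other filters, the replicate number as a block, left-out libraries and a 1.2-fold test.

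Values in every library are given, per class, for the 2 called members with the largest change, the most abundant member and those against the majority, and further ones by choice. Members and lists were chosen with earlier results of these data known. Exon overlaps and 3′ UTRs come from GENCODE v29 on GRCh38, which is not the build of the deposited tables. The values of 1 tested member are not reported here, but it is part of every count and sum.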

Additional observations from a re-analysis of the deposited data

How the results depend on the processing

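Of the 42 members called, 30 (25 lower and 5 higher) kept their direction and call under all 15 alternatives other than the 1.2-fold test, and 12 lost the call under at least 1: SNRPN, U2AF1L4, PRPF19, PRPF31, SF3B1, PRPF39, SF3B6, SNRPD3, LSM1, LSM8, PRPF38B and SF3B5. Against a 1.2-fold change, 18 members (15 lower, 3 higher), 21 of the other spliceosome genes (14 lower, 7 higher) passed and 6876 of all tested genes changed (tested genes lower 3312, tested genes higher 3564), since that test asks for a larger change. Library totals alone moved the median of all genes by 0.098 on the log2 scale, and 33 of the 90 other listed genes were then higher. By library totals alone the log2 fold change turned to 0.0010 for PRPF19, 0.032 for SF3A1, 0.024 for SF3A2, 0.019 for SNRPA, 0.0097 for SNRPB2, 0.077 for SNRPD1 and 0.042 for SNRPD2, and by upper-quartile scaling to 0.036 for SNRPD1 and 0.00090 for SNRPD2. For SNRPD1 leaving out 1 library gave -0.064 to 0.024, with the sign turned without HOTAIR-N siRNA replicate 2 (0.0034) or without the second control siRNA library (0.024). The limma usage test called 2 members, and the cause was not tested. With 1 library left out at a time, 36 to 41 members changed. Deviations of same-numbered libraries from their group means had r of 0.10, -0.33 and -0.25 across 14919 genes, which are not independent replicates. Among differently numbered libraries, the third HOTAIR-N siRNA library and the second control library had the highest r, 0.44. The second HOTAIR-N siRNA library had 0.28 with the first control library and 0.15 with the third. The first HOTAIR-N siRNA library had 0.15 with the third control library and -0.19 with the second. The third HOTAIR-N siRNA library had -0.32 with the first control library. Deviations within a group depend on each other through its mean, so these values cannot tell how samples were paired. Whether libraries of the 2 groups shared a batch was not tested. With the replicate number as a block 37 members changed, 32 lower and 5 higher, all among the 42. Members with few counts, such as U2AF1L4, are limited by depth.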
